A study of Mus musculus with 9 samples.

Results

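Transcripts of the platelet-derived growth factor (PDGF) ligands and receptors were followed in cells that the study names activated hepatic stellate cells (aHSCs). Activated stellate cells are known as the scar-forming cells of injured liver. The members were taken by gene symbol. They were the 4 ligand genes Pdgfa, Pdgfb, Pdgfc and Pdgfd and the 2 receptor genes Pdgfra and Pdgfrb, out of 30869 gene symbols on the array. They were represented by 10 of 45281 gene probes. Of these 10 probes, 7 were detected on at least 3 arrays and were tested, which covered 5 of the 6 genes. Pdgfd and the other 2 probes left out are described below.

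The labels give all 9 samples as male C57/Bl6 mice of genotype WT1GFP/+ and state no age, while the study's methods allow both sexes for culture work. In this genotype 1 WT1 allele carried green fluorescent protein (GFP) as a reporter, in the controls too. GFP-high and GFP-low aHSCs (3 arrays each) were sorted straight from livers scarred by chronic intraperitoneal carbon tetrachloride, and are the WT1-high and WT1-intermediate cells of the study. The study took these 6 arrays from 3 animals, so GFP-high and GFP-low arrays were not fully independent. GFP-negative aHSCs (3 arrays, WT1-negative in the study) were quiescent stellate cells of mice without liver injury that had been activated by 7 days on plastic and then sorted. Sorting relied on the reporter, and the groups were not checked here against Wt1 itself, for which no array value was found under that symbol. The study reported that Wt1 by qPCR followed GFP intensity in sorted culture-activated cells. It also reported that GFP and WT1 protein coincided in liver scars. Injury and activation in the animal thus coincided with GFP status, and in every comparison with GFP-negative cells it cannot be told apart from culture of cells of uninjured mice. GFP-high and GFP-low cells are called the liver populations. Replicates are named by the numbers in the labels (1, 8 and 29; 1, 8 and 30; 3, 11 and 14).

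PDGF ligands act as paired chains. The A and B chains are secreted ready to bind, whereas the C and D chains carry an extra domain that proteases must remove. The α receptor (Pdgfra) binds A, B and C chains and the β receptor (Pdgfrb) binds B and D chains. Both are tyrosine kinases that signal through Ras-MAPK, PI3 kinase and phospholipase C. In liver, PDGF, and PDGF-BB in particular, is known as a strong growth and migration signal for stellate cells, and the β receptor is a common marker of activated stellate cells.

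The values rest on oligonucleotide probes of 50 bases. The first 30 bases (5′ to 3′) are shown for the probes that carried the ligand and α receptor values, and for a second Pdgfra and a second Pdgfc probe, which were dimmer and not called in any comparison.
Pdgfa ILMN_2424721: ttcgtcgataacacgcacgaggctgctgta
Pdgfb ILMN_2618714: cgctgcacaggtgtccctctgatcttttgc
Pdgfc ILMN_2753912: gggaaataggagtatagctcagagaagcac
Pdgfc ILMN_1214186: tctggctattttggggacaagtgtaagtgt
Pdgfra ILMN_1235932: gtggtaagtgtgtgagagcgacttactcca
Pdgfra ILMN_2544724: acctgggtccaaaggggggcgagatgaaac
None of the 10 probes shared a run of 20 bases with any other probe on the array, and the 2 Pdgfra probes had no common run longer than 5 bases. The GC content of the probes lay between 26% for Pdgfd and 60% for the dimmer Pdgfb probe. Of the 10 probe accessions, 8 belonged to the same symbol in RefSeq (GRCm38.p6). The other 2, a Pdgfc and the second Pdgfra probe, had an accession with no match there. The array annotation placed the brightest Pdgfra probe on chromosome 5, the brightest Pdgfc probe on 3, Pdgfd on 9 and Pdgfrb on 18. The dimmer Pdgfb probe was placed on 15. The annotation gave no chromosome for the Pdgfa probe, the brighter Pdgfb probe, the dimmer Pdgfc probes or the second Pdgfra probe. It named no genome build, so no coordinates are given.

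Levels are normalised log2 intensities, and a probe is termed called when its limma adjusted p is under 0.05 over all 20573 probes tested. Per array, 17253 to 19774 probes were detected (38.1% to 43.67% of gene probes), and median negative control signals were 76.29 to 93.57. Of 11 stellate cell marker genes, Ecm1, Des and Reln were detected on all 9 arrays and Colec11 on the 6 liver arrays only. Hhip, Vipr1, Rgs5 and Gfap were detected on none, and Lrat, which makes stored vitamin A esters, on 1 GFP-high array. Unequal numbers of a cell type and unequal RNA per cell cannot be told apart in these bulk samples. The labels name each array as a separate sample, and p-values measure the spread between these arrays.

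**Figure D1:**
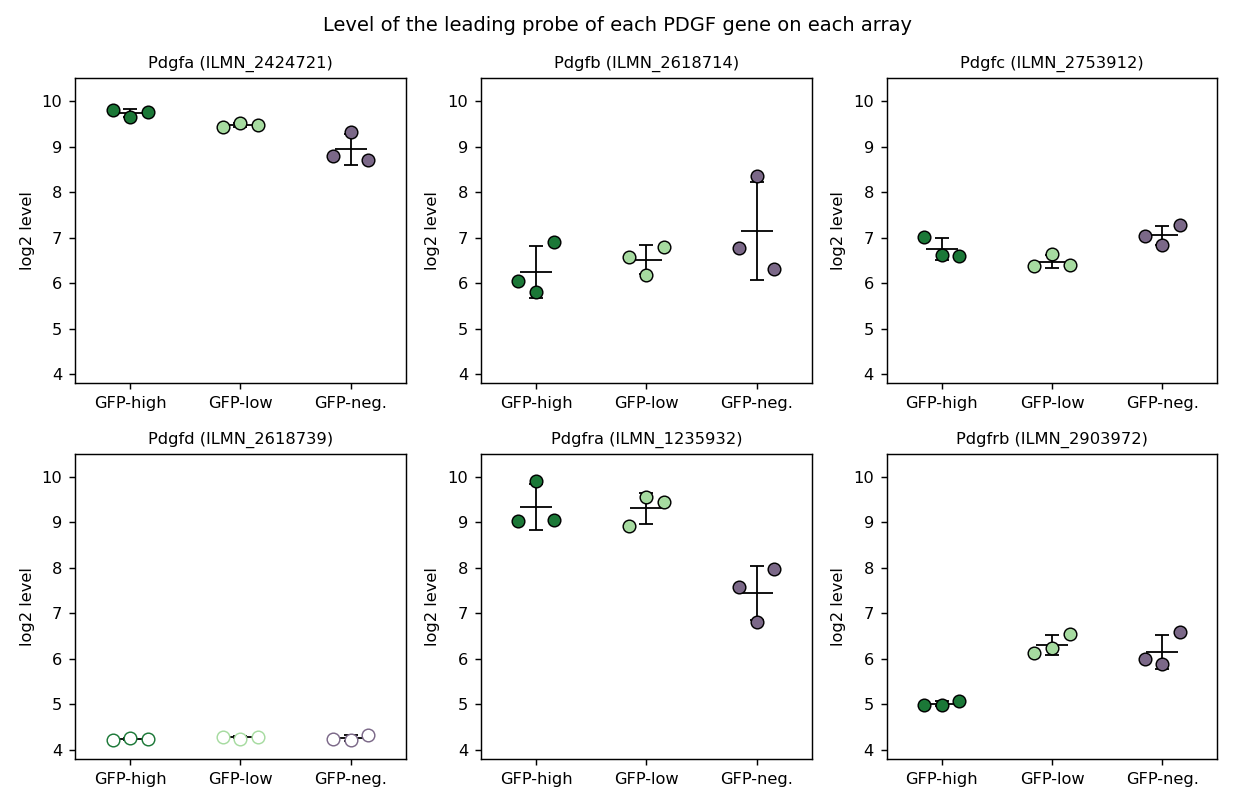
Normalised log2 level (y axis) of the leading probe of each PDGF gene in GFP-high, GFP-low and GFP-negative cells (x axis), 1 point per array, open where the probe was not detected, with the group mean and SD. Pdgfrb lay lowest on the 3 GFP-high arrays, Pdgfra was higher on all 6 liver arrays than on the cultured ones, and Pdgfd was not detected.

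The 2 receptors differed in where they changed. Pdgfrb was lower in GFP-high cells than in both other groups, whereas Pdgfra was higher in both liver populations than in GFP-negative cells. Pdgfrb (ILMN_2903972) had levels of 4.99, 4.98 and 5.08 on GFP-high arrays 1, 8 and 29. On GFP-low arrays 1, 8 and 30 its levels were 6.13, 6.23 and 6.54, and on GFP-negative arrays 3, 11 and 14 they were 5.99, 5.89 and 6.59. All 3 GFP-high arrays lay below every other array, and the GFP-low and GFP-negative ranges overlapped. Group means were 5.02 ± 0.06 in GFP-high, 6.30 ± 0.22 in GFP-low and 6.15 ± 0.38 in GFP-negative cells (SD, 3 arrays each).

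Between GFP-high and GFP-low cells Pdgfrb differed by -1.28 (SE 0.20, 95% confidence interval -1.71 to -0.85), which is 2.43-fold, with a limma adjusted p of 0.0055. The difference had the same direction within each pair of arrays from 1 animal, at -1.14, -1.24 and -1.46. Against GFP-negative cells the difference was -1.14 (SE 0.20, 2.20-fold, limma adjusted p 0.00045). Both comparisons use the same 3 GFP-high arrays. GFP-low and GFP-negative cells differed by 0.15, with an interval of -0.28 to 0.58 (limma adjusted p 0.53). The order of levels was therefore GFP-low, GFP-negative and GFP-high, of which the first neighbours did not differ beyond their spread.

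The Pdgfrb signal was dim in all groups. Its raw intensity exceeded the median negative control by 17.3, 28.5 and 17.2 on the GFP-high arrays, by 35.6, 61.7 and 30.5 on the GFP-low arrays and by 47.9, 50.4 and 92.7 on the GFP-negative arrays. The probe was nevertheless detected on all 9 arrays, with detection p between 0.0021 and 0.0085 on the GFP-high arrays and 0 elsewhere. The size of the difference depended on the scale. Between GFP-high and GFP-low cells it was -0.77 with an offset of 50 and -0.54 without background correction, both still called (limma adjusted p 0.022 and 0.034). Of 23 alternatives, 1 ended this call, median scaling over all probes, most of which were undetected (-0.79, limma adjusted p 0.055). The difference from GFP-negative cells was called under all 22 alternatives that gave a value.

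Pdgfra (ILMN_1235932) had levels of 9.02, 9.92 and 9.05 on the GFP-high arrays. GFP-low arrays gave 8.92, 9.56 and 9.45, and GFP-negative arrays 7.59, 6.80 and 7.97. The 2 liver groups overlapped, and all 6 liver arrays lay above all 3 cultured ones. Group means were 9.33 ± 0.51, 9.31 ± 0.34 and 7.45 ± 0.59 in the same order (SD, 3 arrays each). Pdgfra was 1.88 higher in GFP-high than in GFP-negative cells (SE 0.32, 3.68-fold, limma adjusted p 0.00041). It was 1.86 higher in GFP-low than in GFP-negative cells (SE 0.32, 3.62-fold, limma adjusted p 0.00048). These comparisons share the GFP-negative arrays. GFP-high and GFP-low cells differed by 0.02, and the 95% interval of -0.68 to 0.73 left room for a difference either way (limma adjusted p 0.98).

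Both Pdgfra differences from GFP-negative cells were called under all 22 alternatives that gave a value. Their size ranged from 0.90 to 2.14 for GFP-high and from 0.85 to 2.11 for GFP-low cells, and was smallest where the 2 Pdgfra probes were averaged. The second probe (ILMN_2544724) lay near background, with levels of 4.25 to 4.67 over all arrays and detection on 1 array of each group. It differed from GFP-negative cells by -0.07 in GFP-high and -0.16 in GFP-low cells and was not called (limma adjusted p 0.70 and 0.37). The Pdgfra values above therefore rest on 1 probe.

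The difference between both receptor probes within an array describes their unequal change. Pdgfra minus Pdgfrb was 4.04, 4.93 and 3.97 on the GFP-high arrays, 2.79, 3.33 and 2.90 on the GFP-low arrays and 1.60, 0.91 and 1.38 on the GFP-negative arrays. The 3 groups did not overlap in this difference. As probes bind with different strength, it gives no ratio of the 2 transcripts. Between GFP-high and GFP-low cells mean Pdgfra differed by 0.02, so the gap there rests on Pdgfrb. That probe was dim, and the size of its difference depended on the scale.

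Of the ligands, Pdgfa was higher in GFP-high than in GFP-negative cells, by less than 2-fold. Its smaller difference between GFP-low and GFP-negative cells depended on the processing. Pdgfa (ILMN_2424721), which encodes the A chain, had levels of 9.81, 9.65 and 9.76 on GFP-high arrays. Its levels were 9.43, 9.52 and 9.48 on GFP-low and 8.79, 9.33 and 8.70 on GFP-negative arrays. The 3 groups did not overlap, in the order GFP-high, GFP-low and GFP-negative, with means of 9.74 ± 0.08, 9.48 ± 0.04 and 8.94 ± 0.34 (SD, 3 arrays each). Pdgfa was higher by 0.80 in GFP-high than in GFP-negative cells (SE 0.17, 1.74-fold, limma adjusted p 0.0022), which was called under all 22 alternatives that gave a value.

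Between GFP-low and GFP-negative cells the Pdgfa difference was 0.54 (SE 0.17, 1.45-fold, limma adjusted p 0.020). This call was lost without GFP-low array 8 (0.52, limma adjusted p 0.051), GFP-negative array 3 (0.47, 0.073) or GFP-negative array 14 (0.42, 0.092). It was also lost under median scaling (0.23, limma adjusted p 0.33), and scaling on all probes turned the direction (-0.20, limma adjusted p 0.54). Before normalisation, the Pdgfa intensity exceeded the median negative control by 442, 687 and 298 on GFP-low arrays. On GFP-negative arrays this excess was 493, 703 and 487. Mean raw signal over all probes was also lower on GFP-low arrays (147.5 to 220.5) than on GFP-negative arrays (246 to 256). GFP-high and GFP-low cells differed by 0.26 and Pdgfa was not called (interval -0.12 to 0.64, limma adjusted p 0.49), although the paired differences were 0.38, 0.13 and 0.27. Only scaling on all probes made this a call (0.96, limma adjusted p 0.044).

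Pdgfc (ILMN_2753912), the C chain, was lower in GFP-low than in GFP-negative cells. Its levels were 7.02, 6.63 and 6.60 in GFP-high, 6.37, 6.64 and 6.41 in GFP-low and 7.03, 6.85 and 7.27 in GFP-negative cells. The GFP-low arrays lay below all GFP-negative arrays, and GFP-high arrays overlapped both. The GFP-low difference from GFP-negative cells was -0.58 (SE 0.17, 1.49-fold, limma adjusted p 0.014), and its call was lost without GFP-negative array 14 (-0.46, limma adjusted p 0.068). GFP-high cells differed from GFP-negative cells by -0.30 (interval -0.68 to 0.08, limma adjusted p 0.15) and from GFP-low cells by 0.27 (interval -0.11 to 0.66, limma adjusted p 0.46).

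The dimmer Pdgfc probe ILMN_1214186 was detected on 7 of 9 arrays, at levels of 4.43 to 5.08, and was not called in any comparison. Its differences had the sign of the leading probe's in all 3 comparisons. It differed by -0.30 between GFP-low and GFP-negative cells (limma adjusted p 0.19) and by -0.18 between GFP-high and GFP-negative cells (limma adjusted p 0.42). A further Pdgfc probe (ILMN_1248695) was detected on 1 of 9 arrays and was not tested.

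Pdgfb (ILMN_2618714), the B chain and a ligand of both receptors, was not called in any comparison. Its levels were 6.04, 5.80 and 6.90 in GFP-high, 6.56, 6.18 and 6.80 in GFP-low and 6.78, 8.36 and 6.32 in GFP-negative cells. GFP-negative array 11 stood above every other array, and the 3 groups overlapped. The spread in GFP-negative cells was 1.07 (SD, 3 arrays), against 0.58 in GFP-high and 0.32 in GFP-low cells.

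The Pdgfb difference between GFP-high and GFP-negative cells was -0.91 (interval -1.90 to 0.09, limma adjusted p 0.10). Without GFP-negative array 11 it was -0.30 (limma adjusted p 0.44). It was called without GFP-high array 29 (-1.23, limma adjusted p 0.047) or GFP-negative array 14 (-1.32, 0.030). GFP-low and GFP-negative cells differed by -0.64 (limma adjusted p 0.24), or by -0.03 without GFP-negative array 11, and by -1.21 when arrays were scaled on all probes (limma adjusted p 0.039). GFP-high and GFP-low cells differed by -0.27, with a wide interval of -1.26 to 0.72. The other Pdgfb probe (ILMN_2726543) was detected on 1 array, GFP-negative array 11, at a level of 4.67, and was not tested.

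Pdgfd (ILMN_2618739), the D chain and a ligand of the β receptor, was detected on 0 of 9 arrays. Its levels ran from 4.22 to 4.33, and its raw intensity lay between 1.57 below and 2.62 above the array's median negative control. A signal at background on this single probe does not show that the transcript was absent.

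**Figure D2:**
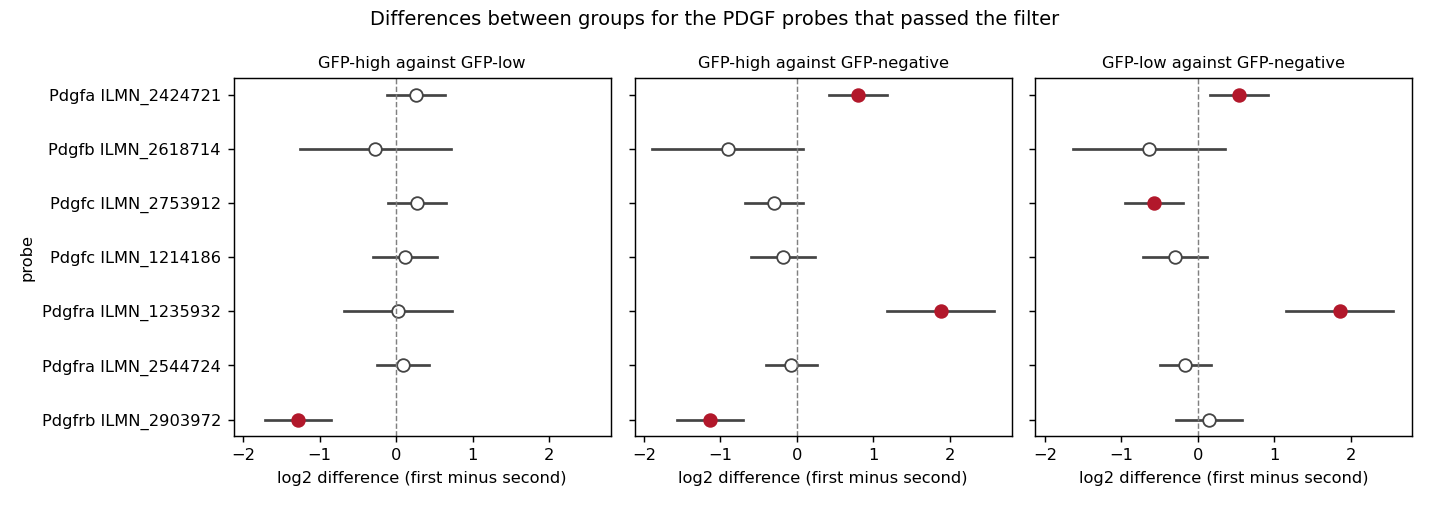
Log2 difference (x axis, first group minus second) of the 7 PDGF probes tested (y axis) in the 3 comparisons, with 95% confidence intervals, filled where called by limma. Only Pdgfrb was called between GFP-high and GFP-low cells, at -1.28, and Pdgfra had the largest differences from GFP-negative cells, at 1.88 and 1.86.

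Over the tested PDGF probes, 1 of 7 (14.3%) was called between GFP-high and GFP-low cells, where 3.55% of all probes were called, 0.904% higher and 2.64% lower. The median difference was 0.09 for the 7 probes and 0.05 for all probes. Between GFP-high and GFP-negative cells 3 of 7 (42.9%) were called, 2 higher and 1 lower, where 59.6% of all probes were called, 26.5% higher and 33.1% lower. Between GFP-low and GFP-negative cells 3 of 7 were called, 2 higher and 1 lower, against 58% of all probes, 24.4% higher and 33.6% lower. By gene, with the leading probe alone, 3 of 5 tested were called in each comparison with GFP-negative cells, a share near the background. Median differences over the 7 probes were -0.18 and -0.16, against -0.10 and -0.13 over all probes. The study had named Pdgfrb from these same arrays, so its difference here is not independent evidence.

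**Figure D3:**
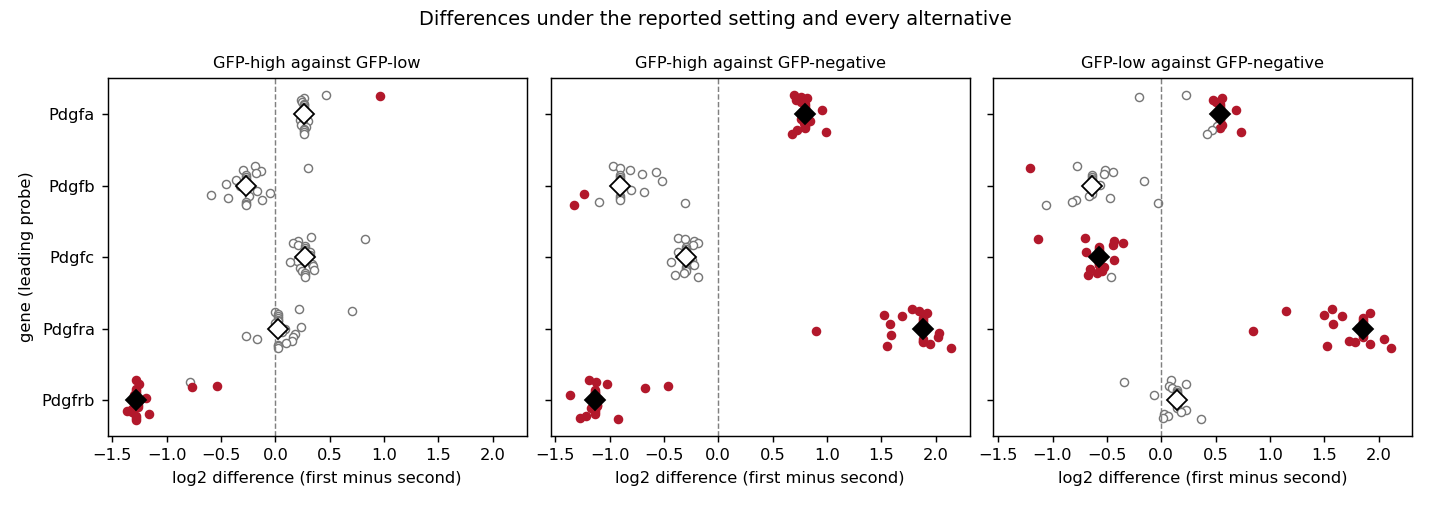
Log2 difference (x axis) of the leading probe of each of the 5 tested PDGF genes (y axis) in the 3 comparisons, as reported (diamond) and under each alternative processing (circle), filled where called by limma. Pdgfrb stayed below 0 in both comparisons of GFP-high cells and Pdgfra stayed above 0 in both comparisons with GFP-negative cells, while Pdgfa between GFP-low and GFP-negative cells ranged from -0.20 to 0.73.

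Markers of other cells moved with these groups. Over all probes, 3.55% were called between GFP-high and GFP-low cells, 0.904% higher and 2.64% lower. Of 12 macrophage genes, 8 were lower in GFP-high than in GFP-low cells and 0 were higher. Their summed normalised intensity was 3684 to 6779 on GFP-high, 13263 to 21327 on GFP-low and 35106 to 39347 on GFP-negative arrays, and Lyz2, which encodes lysozyme, was the brightest (11.05, 12.82 and 13.58 in the 3 groups). Of 10 endothelial genes, 3 were lower in GFP-high cells and 0 higher, with sums of 933 to 1291 on GFP-high and 1609 to 2092 on GFP-low arrays. The same direction was found for 2 of 10 portal and adventitial fibroblast genes. Of 8 smooth muscle and pericyte genes, which mark another cell type rich in β receptor, 6 were tested and 0 called between GFP-high and GFP-low cells. Against GFP-negative cells, where Pdgfrb was called lower in GFP-high cells, 4 of the 6 were lower and 1 higher in each liver population, with sums of 266 to 320 on GFP-high, 199 to 309 on GFP-low and 710 to 789 on GFP-negative arrays. Of all probes, 33.1% in GFP-high and 33.6% in GFP-low cells were called lower than in GFP-negative cells. Myh11, Mcam and Smtn of the smooth muscle and pericyte list were detected on all liver arrays. Smtn, the brightest of them there, was at 8.06 in GFP-high, 7.43 in GFP-low and 7.37 in GFP-negative cells. Cnn1 and Lmod1 were not detected on any liver array, and Actg2, at 5.50 in GFP-low cells, was not detected in GFP-high cells. Of 10 mesothelial genes, Dmkn was higher in GFP-high than in GFP-low cells (0.92, limma adjusted p 0.016) and 0 were lower, with sums of 36206 to 41045 on GFP-high and 21213 to 29452 on GFP-low arrays. Of the 6 tested stellate cell markers, Des, which encodes desmin, was higher (1.40, limma adjusted p 0.045) and Hgf, the hepatocyte growth factor, lower (-1.16, limma adjusted p 0.041). The part of any of these cells in the Pdgfrb difference was not tested.

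Against GFP-negative cells, all 10 mesothelial genes were higher in both liver populations, with Msln at 11.61 in GFP-high, 10.99 in GFP-low and 4.45 in GFP-negative cells. Over all probes, 59.6% were called in GFP-high and 58% in GFP-low cells against GFP-negative cells. Of 10 portal and adventitial fibroblast genes, 7 were higher and 1 lower in each liver population. All 6 tested T and NK cell genes were higher in GFP-high and 5 in GFP-low cells, with sums of 397 to 840 over the liver arrays and 32.1 to 39.7 on GFP-negative arrays. Of 5 tested hepatocyte genes, 4 were higher in GFP-high and 3 in GFP-low cells, and 1 was lower in each. All 7 tested cell cycle genes were lower. Of 12 macrophage genes, 2 were higher and 7 lower in GFP-high cells, and 4 were higher and 4 lower in GFP-low cells. Of 10 endothelial genes, 2 were higher and 5 lower in GFP-high cells, and 3 were higher and 5 lower in GFP-low cells. Of 6 tested stellate cell markers, 2 were higher and 2 lower in each liver population. The part of these lists in the Pdgfra and Pdgfa differences was not tested. On GFP-negative array 11, where Pdgfb stood apart, the macrophage sum was 39347, against 35106 and 35985 on GFP-negative arrays 3 and 14. Its endothelial sum of 1048 lay between theirs, 1146 and 829. Ppbp was the only one of 6 platelet and megakaryocyte genes, cells known as a store of PDGF, detected in any GFP-negative sample.

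Genes that process the ligands, bind or transmit the PDGF signal or respond to it were then counted in 7 lists, which also take in relatives of the receptors and the related VEGF family. Of 87 genes, 82 were on the array and 73 were tested. Between GFP-high and GFP-low cells 0 were higher and 5 lower (6.85%, against 3.55% of all probes). The 5 were Nrp1, Csf1r, Vegfa, Has2 and Pcsk6, and their groups did not overlap. In the lists of receptor adaptors, Ras-MAPK and Akt kinases, and phosphatases and negative regulators, 0 of 42 tested genes were called, among them the adaptors Grb2 and Pik3r1. Grb2 lay close to background, with means of 4.58 in GFP-high and 4.80 in GFP-low cells. Pik3r1 differed by -0.44, with an interval of -0.90 to 0.01 (limma adjusted p 0.31). A gene not called is thus not shown to be unchanged.

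Nrp1, a co-receptor for VEGF that also binds PDGF, had the largest of these differences. Its levels were 7.30, 7.52 and 7.06 in GFP-high, 9.21, 8.66 and 8.49 in GFP-low and 10.89, 11.21 and 10.85 in GFP-negative cells. The difference between GFP-high and GFP-low cells was -1.49 (SE 0.21, limma adjusted p 0.0032) and was called under 22 of 23 alternatives. Vegfa, a ligand of the VEGF family that is related to PDGF, differed by -1.08 (SE 0.19, limma adjusted p 0.013) and was called under 20 of them.

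The other 3 were less stable. Csf1r, a receptor kinase related to the PDGF receptors, differed by -1.41 (limma adjusted p 0.034) and was called under 10 of 23 alternatives. It is also in the macrophage list, whose summed level was lower in GFP-high cells, and the part of macrophages in its difference was not tested. Pcsk6, a protease that cleaves proprotein precursors, differed by -0.93 (limma adjusted p 0.034, 10 of 23). Has2, which makes hyaluronan and is induced by PDGF, differed by -0.99 (limma adjusted p 0.021, 15 of 23). Has2 was close to background in GFP-high cells, at 4.72 to 5.19. With arrays blocked by number or by animal, 8 genes were called, the same 5 with Plau, Pdgfrl and Flt1. A fixed block by replicate number, which left arrays 29 and 30 unpaired, gave 3.

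Leaving out single arrays gave 2 to 5 called genes, with 2 without GFP-high array 1 or 29, and 3 without GFP-high array 8, GFP-low array 1 or GFP-negative array 3 or 14.

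**Figure D4:**
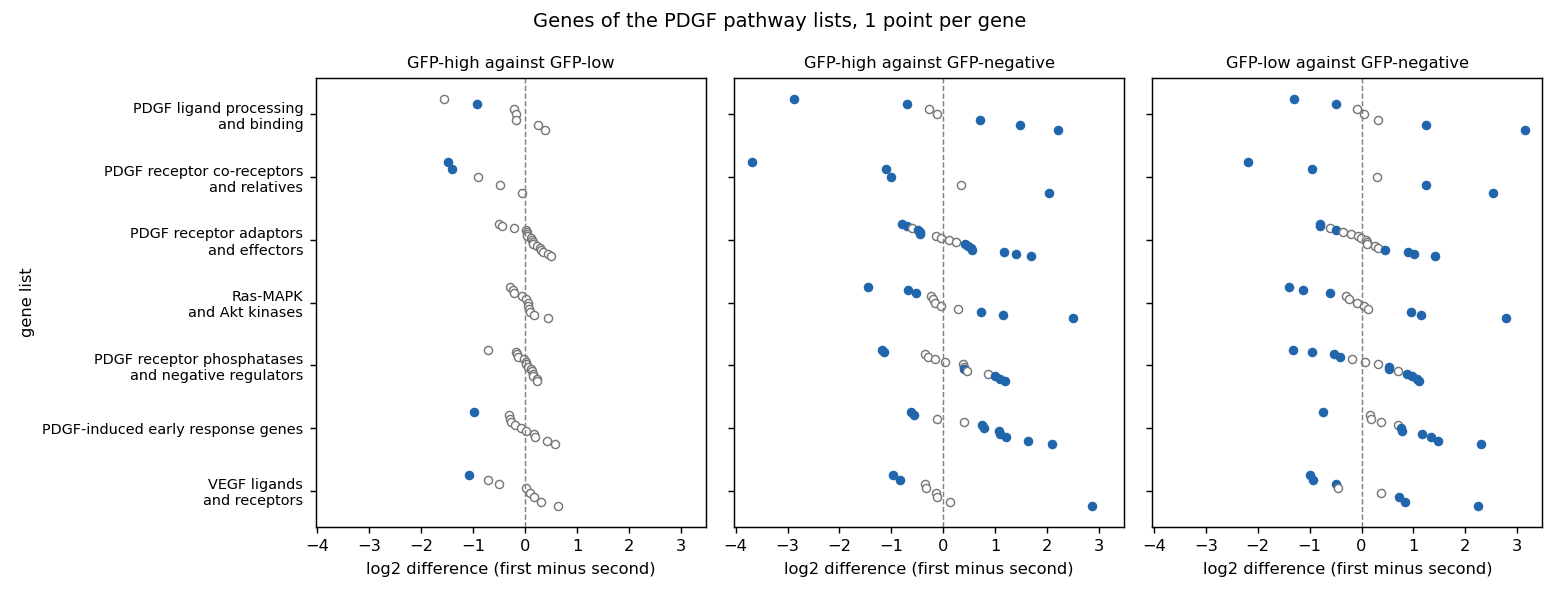
Log2 difference (x axis, first group minus second) of the 73 tested genes of the 7 PDGF pathway lists (y axis), 1 point per gene, filled where called by limma. Between GFP-high and GFP-low cells 5 genes were called, all lower, while against GFP-negative cells calls ran in both directions in every list.

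Against GFP-negative cells, 26 genes were higher and 19 lower in GFP-high cells (61.6%, against 59.6% of all probes). In GFP-low cells 26 were higher and 18 lower (60.3%, against 58%). The median difference was 0.03 and 0.16, against -0.10 and -0.13 over all probes. These shares lay near the background, and both comparisons share the GFP-negative arrays.

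Proteases and binding proteins of the ligands changed in both directions. Of 7 tested, 3 were higher and 2 lower in GFP-high cells (71.4%, against 59.6% of all probes). In GFP-low cells 2 were higher and 2 lower (57.1%, against 58%). Pcsk6 was higher by 2.21 and 3.14 (SE 0.21 each). Plat, which encodes tissue plasminogen activator and activates PDGF-CC, was higher by 1.49 and 1.24 (SE 0.24 each). Plau, which encodes urokinase and activates PDGF-DD, differed by -2.87 in GFP-high cells (SE 0.43), and Furin, a proprotein convertase, by -0.48 in GFP-low cells (SE 0.16).

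Among 5 tested co-receptors and relatives, 1 was higher and 3 lower in GFP-high cells, and 2 higher and 2 lower in GFP-low cells. This was 80% in each, against 59.6% and 58% of all probes. Nrp1 differed by -3.69 in GFP-high and -2.19 in GFP-low cells (SE 0.21 each). Lrp1, an endocytic receptor that modulates the β receptor, was higher by 2.04 and 2.53 (SE 0.28 each). Csf1r was lower in GFP-high cells (-1.11, SE 0.32), and Pdgfrl, a receptor-like protein, was higher in GFP-low cells (1.25, SE 0.27).

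Adaptors and effectors gave 7 higher and 5 lower of 17 in GFP-high cells (70.6%, against 59.6% of all probes). In GFP-low cells 4 were higher and 3 lower (41.2%, against 58%). Stat3, a transcription factor activated downstream of growth factor and cytokine receptors, was higher by 1.70 and 1.41 (SE 0.28 each), and Sos2, a Ras activator, by 1.16 and 1.02 (SE 0.15 each). Src, a kinase recruited to the receptors, was higher by 1.40 in GFP-high cells (SE 0.34). Crkl, an adaptor, differed by -0.80 in GFP-low cells (SE 0.17).

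In the Ras-MAPK and Akt list, 3 were higher and 3 lower of 11 in each liver population. This was 54.5% in each, against 59.6% and 58% of all probes. Map2k1 (MEK1) was higher by 2.49 and 2.78 (SE 0.28 each), from a GFP-negative level of 4.75 detected on 1 of 3 arrays. Nras, a Ras protein, differed by -1.45 and -1.40 (SE 0.14 each).

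Of 14 tested phosphatases and negative regulators, 4 were higher and 2 lower in GFP-high cells (42.9%, against 59.6% of all probes). In GFP-low cells 6 were higher and 4 lower (71.4%, against 58%). Acp1, a phosphatase known to act on PDGF receptors, differed by -1.17 and -1.32 (SE 0.16 each). Rasa1, which switches off Ras at the receptor, differed by -1.14 in GFP-high cells (SE 0.23), and Ptpn1, another receptor phosphatase, was higher by 1.11 in GFP-low cells (SE 0.24).

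Early response genes, which growth factors such as PDGF induce, gave 7 higher and 2 lower of 11 in GFP-high cells. This was 81.8%, against 59.6% of all probes. In GFP-low cells 6 were higher and 1 lower (63.6%, against 58%). The genes called lower are not named for this list, and a response to PDGF was not tested. Fos was higher by 2.09 and 2.30 (SE 0.17 each) and Fosl2 by 1.64 and 1.47 (SE 0.25 each). Srf was higher by 1.20 in GFP-high cells (SE 0.15) and Jun by 1.34 in GFP-low cells (SE 0.25).

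The related VEGF family gave 1 higher and 2 lower of 8 in GFP-high cells (37.5%, against 59.6% of all probes). In GFP-low cells 3 were higher and 3 lower (75%, against 58%). Vegfc was higher by 2.86 and 2.24 (SE 0.24 each), and Vegfb differed by -0.97 and -0.99 (SE 0.17 each). Pgf, the placental growth factor, differed by -0.83 and -0.93 (SE 0.20 each), and was detected on 2 of 3 GFP-high and 1 of 3 GFP-low arrays. Limma adjusted p for the genes named in these lists against GFP-negative cells lay under the threshold of 0.05.

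The genes most like each member over the 9 arrays were named as a description, with no test. The points share the 3 groups, and group differences enter every correlation. For Pdgfa they were LOC226017 (Pearson's r 0.996), Dtnb (0.995) and Pkp2 (0.98), the last a desmosomal protein. Pdgfra was followed by Stag2 (0.99), Prkg1 (0.98) and Col6a3 (0.98), of which Col6a3 encodes a collagen VI chain and had levels of 9.79, 10.23 and 7.85 in the 3 groups. Pdgfrb was followed by A730040I05Rik (0.99), Fbn1 (0.95) and Rftn2 (0.95). Fbn1, which encodes fibrillin, had levels of 5.13 in GFP-high, 6.07 in GFP-low and 5.91 in GFP-negative cells. For Pdgfb the 3 were Cldn4 (0.95), 2210404O07Rik (0.94) and Stat4 (0.93), and for Pdgfc they were 4930481F22Rik (0.97), A130042E20Rik (0.96) and Nsd1 (0.96), most of them dim.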

How the data were processed

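RNA of 9 samples was hybridised to Illumina mouse bead arrays, 1 sample per array. Per the file headers, the deposited tables hold 1 mean bead intensity per probe and array, not normalised, and a detection p-value, the share of negative control probes as bright as the probe. The submitters' processing notes name limma, with no version. The deposited tables were used without any of the authors' own comparisons.

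Intensities were background-corrected on the 936 negative control probes (normexp), given an offset of 16, quantile-normalised and put on a log2 scale with neqc of limma 3.58.1 in R 4.3.3. Of 45281 gene probes, 20573 had a detection p-value under 0.05 on at least 3 arrays and were tested. All 9 arrays entered 1 limma fit with a level per group (6 residual and 5.19 prior degrees of freedom). Calls were made at a Benjamini-Hochberg adjusted p under 0.05 over all tested probes. The number of arrays limits the precision. The fit was tested on simulated independent arrays, with changes larger than that of any PDGF probe. That test covered neither the pairing nor smaller changes.

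All probes of the 6 members were given, with the brightest leading. Up to 3 called genes per pathway list and comparison, with the largest differences and no overlap between groups, were named, and the 3 genes most like each member by Pearson's r. Some genes that this rule names are not reported here. Brightest or defining genes were named for some of the marker lists only. The members and lists were chosen with earlier results of these data known.

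Replicates of GFP-high and GFP-low cells are paired, since the study took these 6 arrays from 3 animals. Over probes, deviations from the group means correlated at 0.35, 0.34 and 0.47 within pairs and at -0.39 to 0.03 otherwise. Deviations from a mean of 3 arrays cancel out, so positive values within pairs in part bring negative values otherwise. The array labelled GFP-low replicate 30 carries 29 in its column name, and was taken as 30 as the only one left for that group. Alternatives were other scalings, background corrections, offsets, filters, fits, blocks and leaving out arrays. A BeadChip block was not run, since the headers give no chip.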

Additional observations from a re-analysis of the deposited data

How the results depend on the processing

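Results were recomputed under 23 alternatives, 9 of which left out 1 array. Over the single probes, 433 values kept their direction and side of the threshold, 6 lost a call, 4 gained one and 14 changed sign. No sign change had a call on either side except Pdgfa between GFP-low and GFP-negative cells. Median scaling over all probes was added after seeing the data, and most of those probes were undetected. It shifted the median of all tested probes between GFP-high and GFP-low cells to 0.45 (0.05 as reported), and to -0.44 between GFP-low and GFP-negative cells (-0.13 as reported). It gave -0.20 for Pdgfa and -0.34 for Pdgfrb between GFP-low and GFP-negative cells, and 0.30 for Pdgfb between GFP-high and GFP-low cells. Other sign changes were of uncalled values. Between GFP-high and GFP-low cells, Pdgfra was -1e-04 under cyclic loess, -0.27 without GFP-high replicate 8 and -0.17 without GFP-low replicate 1 (-0.27 to 0.18 over the arrays left out). The dim Pdgfra probe was -0.43 there under median scaling and 0.29 between GFP-low and GFP-negative cells. The dim Pdgfc probe was -0.37 there under median scaling, -0.002 under cyclic loess and -0.065 without GFP-high replicate 29 (-0.065 to 0.26 over the arrays left out). Under the fixed replicate block by number it was -0.11, a value from pairs 1 and 8 alone. Between GFP-low and GFP-negative cells it was 0.11 under median scaling. Pdgfrb was -0.070 between GFP-low and GFP-negative cells with array weights. The causes were not tested.

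Signalling genes called between GFP-high and GFP-low cells numbered 5, against 8 under median scaling over all probes, 2 without background correction, 1 without a filter and 2 with only the compared groups fitted. They numbered 3 under the fixed replicate block, which could be fitted for this comparison alone, and 8 under each random replicate block (by number or animal). The fixed block went by replicate number, so arrays 29 and 30 stayed unpaired and its differences rested on pairs 1 and 8. Leaving out 1 array gave 2 to 5 there, and 1 to 3 PDGF probes between GFP-low and GFP-negative cells, with 1 without GFP-negative replicate 14. Median scaling over all probes gave 29 signalling genes between GFP-high and GFP-negative cells (45 as reported, 35 to 44 without 1 array). The blocks changed no call of a PDGF probe.

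Of all probes called between GFP-high and GFP-low cells, 74.5% were lower. This share was 4.51% under median scaling over all probes (2563 higher, 121 lower), 62.2% without background correction and 58.9% and 58.4% under the random blocks. Calls numbered 730, against 2684, 510, 1752 and 1796 in the same order, 335 without a filter and 339 with only the compared groups fitted, and 335 to 867 without 1 array. Of calls between GFP-low and GFP-negative cells 57.9% were lower, or 76.9% under median scaling over all probes. Dim probes, Pdgfrb among them, are limited by signal over background.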
